A study of Mus musculus with 29 samples.

Results

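The genes described here are 10 components of fibroblast growth factor (FGF) signaling, namely the 4 receptors Fgfr1, Fgfr2, Fgfr3 and Fgfr4, the FGF carrier protein Fgfbp1, and the feedback and target genes Spry1, Spry2, Spry4, Dusp6 and Etv5. They were chosen by symbol, and all 10 are listed in each table, among 35199 genes in the table of sorted cells. RNA-seq was performed on mouse urothelium, the epithelium that lines the bladder. In K5VP16;Pparg mutants, tamoxifen releases a constitutively active form of the nuclear receptor Pparg, fused to the VP16 activation domain, in cells that express a Krt5-driven Cre. The transgene sits in the ROSA26 locus behind a CAG promoter and carries an EGFP, and the sorted cells also carried the mTmG reporter, so that recombined cells and their progeny are Gfp+.

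The first comparison used Gfp+ cells sorted from adult mice 4 days after tamoxifen, with 4 control and 5 mutant libraries. The labels give the mutants as K5VP16;Pparg+/- and the controls as wild type, both untreated and in homeostasis, whereas the methods of the study name K5;mTmG mice as the sorted controls. The other libraries came from laser-captured lesions of mice given the bladder carcinogen BBN in drinking water, titled 4M and labelled with 5 months of BBN. These were 3 basal tumors labelled wild type, and from K5VP16;Pparg+/- mice 3 luminal tumors and, from lesions of mixed subtype, 3 upper luminal domains with 3 lower basal-like domains. All lesion groups share the BBN exposure. The Cre acts in Krt5+ basal cells alone, so superficial cells outside that lineage do not express the transgene, and captured tissue can hold stroma and leukocytes.

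FGFs bind receptor tyrosine kinases together with heparan sulfate, and the activated receptor signals through the adaptor Frs2, Ras and the ERK kinases to ETS transcription factors such as Etv5. The same cascade induces its own brakes. Sprouty proteins (Spry1, Spry2 and Spry4) act on the steps from receptor to Raf, and the phosphatase Dusp6 removes phosphate from ERK. Levels of these genes are therefore often read beside those of the receptors, and FGFR3 is known as a gene that is frequently mutated or highly expressed in luminal papillary bladder cancer.

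Values are normalized counts, and each comparison was made within a table that the authors normalized on its own. The libraries summed to 36.5e6 to 41.4e6 normalized counts in the sorted cells and to 41.7e6 to 53.9e6 in the lesions, and the depth in reads is unknown. These sums split by group. They were 41.7e6 to 44.7e6 in basal and 51.0e6 to 53.3e6 in luminal tumors. In the table of luminal domains they were 43.2e6 to 46.7e6 in basal tumors and 47.7e6 to 53.0e6 in the domains. The part of this in the members' values was not tested. The summed luminal and basal markers followed the labels of the tumors, while single markers did so in part. The summed level of 10 luminal markers was 5929 to 27420 in basal tumors and 159769 to 906011 in luminal tumors, and that of 7 basal markers was 369059 to 824485 and 15793 to 299298. In luminal tumors 9 of the 10 luminal markers were above every basal tumor, and 3 of the 7 basal markers were below. Gata3, Krt5, Krt6a, Krt16 and Trp63 overlapped. Krt6a lay between 33897 and 132285 in basal tumors and reached 94165.5 in a luminal tumor. Pparg itself lay between 13.0 and 126 normalized counts in basal tumors and between 3579 and 8632 in luminal tumors. In the sorted cells, Krt5 was abundant in all 9 libraries, but luminal markers were abundant too. The luminal markers summed to 265203 to 439377 in controls and to 301413 to 532734 in mutants. The basal markers summed to 141874 to 177460 and to 98085 to 137567. Krt14, a basal keratin, lay between 388 and 747 in controls and between 616 and 11162.5 in mutants. The libraries were thus not shown to hold basal cells alone. Pparg lay between 9381 and 9999 in controls and between 6111 and 9032 in mutants, so its summed mRNA gives no check of the transgene. Of the luminal and basal markers tested there, Krt20 and Cd44 rose in mutants (log2 fold change 1.83 and 0.76, limma adjusted p = 0.0444 and 0.0116) and Col17a1, a hemidesmosome collagen, fell (-1.34, adjusted p = 0.0315), and the part of these differences in the members' values was not tested. Y-linked genes split the sorted libraries. The mean log2 level of 4 such genes was 11.05 to 11.11 in 3 controls, 5.59 in the fourth control and 5.16 to 5.91 in the 5 mutants, whereas all lesion libraries lay above 9.7.

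Promoter windows of 300 bases, 250 before and 50 after the annotated start, were read from RefSeq (GRCm38.p6). They are shown for Fgfr3, Spry1 and Fgfbp1, the members that passed the test in at least 1 comparison below, and capitals mark matches to the motifs searched. The Fgfr3 gene lies at chr5:33721724-33737068, Spry1 at chr3:37639947-37644599 and Fgfbp1 at chr5:43978858-43981828. The windows are chr5:33721474-33721773 on the plus strand for the first of 2 Fgfr3 starts, chr3:37639697-37639996 on the plus strand for Spry1 and chr5:43981750-43982049 on the minus strand for Fgfbp1.
Fgfr3: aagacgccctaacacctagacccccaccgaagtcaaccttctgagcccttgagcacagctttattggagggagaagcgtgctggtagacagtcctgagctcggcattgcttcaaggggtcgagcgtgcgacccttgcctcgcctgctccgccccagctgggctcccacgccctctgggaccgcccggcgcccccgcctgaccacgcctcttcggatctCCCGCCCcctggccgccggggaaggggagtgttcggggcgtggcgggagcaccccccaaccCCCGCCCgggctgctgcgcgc
Spry1: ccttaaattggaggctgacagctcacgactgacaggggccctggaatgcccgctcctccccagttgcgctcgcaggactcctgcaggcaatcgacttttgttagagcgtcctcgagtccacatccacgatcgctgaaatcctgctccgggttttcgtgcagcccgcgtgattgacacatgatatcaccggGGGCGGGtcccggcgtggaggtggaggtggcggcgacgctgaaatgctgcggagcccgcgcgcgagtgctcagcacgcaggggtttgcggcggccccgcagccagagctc
Fgfbp1: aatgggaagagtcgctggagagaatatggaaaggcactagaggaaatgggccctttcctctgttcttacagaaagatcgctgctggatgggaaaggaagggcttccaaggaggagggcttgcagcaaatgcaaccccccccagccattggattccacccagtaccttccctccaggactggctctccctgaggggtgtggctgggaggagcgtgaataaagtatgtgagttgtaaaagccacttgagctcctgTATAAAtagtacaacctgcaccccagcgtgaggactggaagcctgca

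Both strands of 10 windows of 8 members were searched for 7 motifs. The SP1 box, spelled GGGCGGG, was held by 4 of the 10 windows, including those printed for Fgfr3 and Spry1, and by 25.6% of all 32851 RefSeq mouse windows. The TATA box motif, spelled TATAAA, was held only by the Fgfbp1 window among the 10, against 13.6% of all. That match begins at base 4 after the annotated start, not before it. The nuclear receptor element, spelled AGGTCA, was held by the Spry2 window alone, against 16.3% of all. The E-box, spelled CACGTG, was held by the Fgfr2 window alone, against 7.15% of all. None of the 10 windows held the ETS core, spelled CCGGAAG, which 8.86% of all windows held. The same was true of the AP-1 motif, spelled TGANTCA and held by 7.81% of all windows. It was also true of DR1, the direct repeat of the nuclear receptor element with 1 base between its copies, held by 0.0396%. Each DR1 contains the single nuclear receptor element. These matches describe letters in the windows and do not show binding.

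The comparison of sorted cells asks what the active receptor does in sorted Gfp+ cells within days. Here Fgfr3 and Spry1 fell in mutants to less than the lowest control, Fgfr2 was also below every control without passing the test, and Etv5 was above every control without passing it. Of the 9 members tested, 2 passed at an adjusted p under 0.05 in limma and both were lower, against 2.85% of the 16413 genes tested in either direction and 1.08% lower. All mutants were below all controls for 3 members, against 4.51% of genes, and above them for 1, against 4.67%. The median log2 fold change was -0.36 over the 9 members and 0.0045 over all genes tested. Fgfr4 was too low to test. Bulk libraries cannot tell fewer cells of a type from less RNA per cell, and all values below carry this limit.

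**Figure D1:**
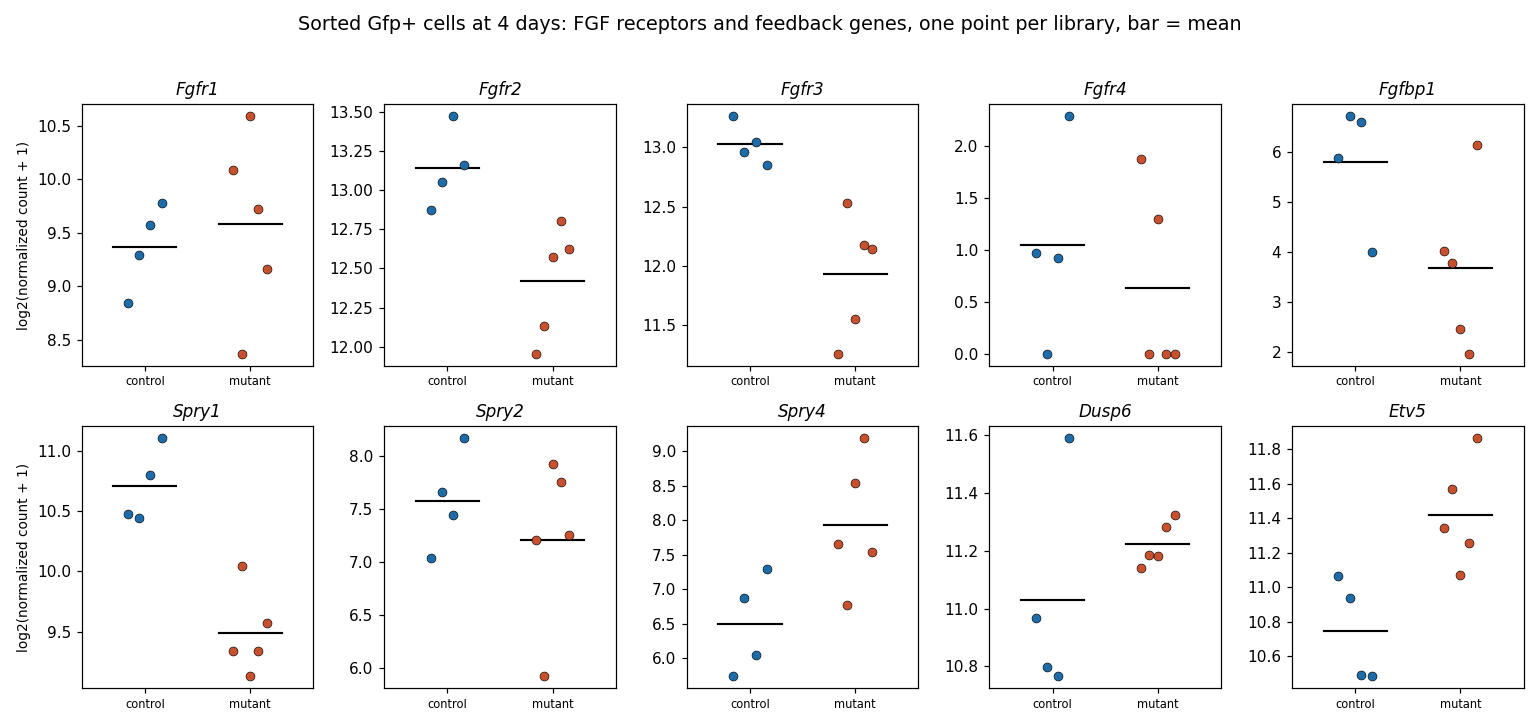
Log2(normalized count + 1) of each member in sorted Gfp+ cells, with 1 point per library (4 controls, 5 mutants) and a bar at the group mean. Each panel has its own vertical axis. For Fgfr2, Fgfr3 and Spry1 every mutant lies below every control, and for Etv5 every mutant lies above.

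Fgfr3 encodes a receptor that is prominent in urothelium. It was at 9844, 7969, 8443 and 7401 normalized counts in the 4 controls and at 2441, 5929, 2994, 4621 and 4502 in the 5 mutants. The mutants thus spread over more than a 2-fold range, all of it under the lowest control. The means were 8414 ± 1044 (SD, n = 4) and 4097 ± 1392 (SD, n = 5), a log2 fold change of -1.10 (SE 0.24, adjusted p = 0.0397 by limma with Benjamini-Hochberg adjustment). Its call was lost when any of the 4 controls, or the mutant at 2994 or at 4502, was left out (adjusted p 0.0554 to 0.113), while the log2 fold change stayed between -1.25 and -0.93 over all 9 such fits. Without a trend in eBayes the adjusted p was 0.0713. A term for Y-linked expression and a smaller table of the authors, both described below, ended the call as well.

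Fgfr2, the other main receptor of these cells, stood at 7486, 8495, 11353 and 9138 in controls and at 3969, 4499, 6078, 7138 and 6319 in mutants. The highest mutant came close to the lowest control without crossing it. The log2 fold change was -0.72 (SE 0.19, limma adjusted p = 0.0707), which does not pass. Fgfr1, a receptor typical of mesenchymal cells, was at 459, 626, 762 and 876 in controls and at 1088, 330, 1540, 843 and 573 in mutants. These groups overlapped widely (log2 fold change 0.21, 95% interval -0.68 to 1.11, limma adjusted p = 0.799). Fgfr4 did not exceed 3.87 normalized counts in any of the 9 libraries and was at 0 in 4 of them.

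Per kb of transcript, Fgfr2 and Fgfr3 made up nearly all receptor mRNA of the sorted cells. In controls Fgfr2 stood at 2417 ± 434 and Fgfr3 at 2028 ± 252 normalized counts per kb (SD, n = 4), and their ranges overlapped, with Fgfr3 above Fgfr2 in 1 of 4 libraries. Fgfr1 stood at 155 ± 41.0 and Fgfr4 at no more than 1.16 on the same scale. The summed receptor level per kb was 4314 to 5217 in controls and 1889 to 3197 in mutants, 2 ranges that did not overlap. The share of Fgfr3 in that sum was 39.0% to 53.2% in controls and 26.9% to 53.0% in mutants, and the share of Fgfr1 was 2.34% to 4.53% and 2.79% to 13.1%.

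**Figure D2:**
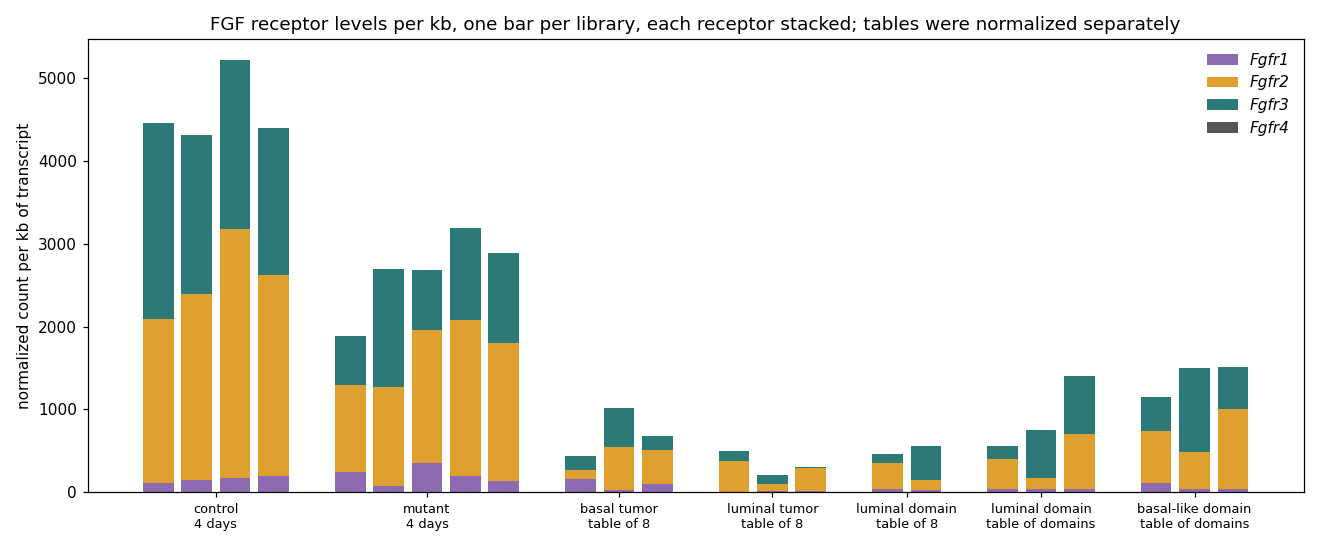
Normalized counts per kb of transcript for Fgfr1, Fgfr2, Fgfr3 and Fgfr4, stacked in 1 bar per library. Levels compare within a table only. The 4 control bars reach 4314 to 5217 and the 5 mutant bars 1889 to 3197, and Fgfr4 is too low to be seen.

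Among the feedback genes, Spry1 was at 1424, 1390, 1784 and 2209 in controls and at 646, 1054, 559, 645 and 761 in mutants. Every mutant was below every control. The means were 1702 ± 382 (SD, n = 4) and 733 ± 193 (SD, n = 5), a log2 fold change of -1.22 (SE 0.20, limma adjusted p = 0.0177). With each of 9 libraries omitted in turn, 8 fits kept this call, and without the control at 1784 the adjusted p was 0.0639. The call was also lost with a term for Y-linked expression and in a smaller table of the authors, both described below.

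The other Sprouty genes did not pass the test. Spry2 was at 130, 201, 173 and 286 in controls and at 146, 59.8, 241, 214 and 152 in mutants, with overlapping groups (log2 fold change -0.36, SE 0.40, limma adjusted p = 0.651). Spry4 was at 52.4, 117, 65.2 and 155 in controls and at 201, 108, 370, 584 and 185 in mutants. All mutants but the lowest exceeded every control (log2 fold change 1.45, SE 0.50), yet the adjusted p was 0.142 in limma.

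Dusp6 was at 2002, 1779, 1742 and 3082 in controls and lay between 2256 and 2560 in mutants. The mutants were tightly grouped inside the range of the controls (log2 fold change 0.19, 95% interval -0.16 to 0.55, limma adjusted p = 0.531). Etv5, the ETS factor of the set, was at 2142, 1958, 1436 and 1434 in controls and at 2595, 3044, 2148, 2449 and 3728 in mutants. Its lowest mutant was barely above the highest control (log2 fold change 0.68, SE 0.18, limma adjusted p = 0.0777). Fgfbp1, which releases FGFs held in the matrix, was at 58.0, 104, 96.4 and 15.0 in controls and at 15.1, 12.8, 4.46, 2.90 and 69.6 in mutants, with overlap (log2 fold change -2.13, SE 0.86, limma adjusted p = 0.198).

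The split in Y-linked expression runs with genotype, since 3 of 4 controls and none of the 5 mutants had the high level. With a term for it, no member passed and 26 genes did. Under that term Fgfr3 had a log2 fold change of -1.34 (limma adjusted p = 0.374) and Spry1 of -0.99 (limma adjusted p = 0.421). The only control with the low Y-linked level had 9844 normalized counts of Fgfr3 and 1424 of Spry1, each above all 5 mutants. For Fgfr2 it had 7486, above all mutants as well, and for Etv5 it had 2142, just under the lowest mutant at 2148. In the authors' smaller table of 3 against 3 libraries no member passed, with Fgfr3 at -0.88 (limma adjusted p = 0.150) and Spry1 at -1.20 (limma adjusted p = 0.104) on the log2 scale.

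Stromal markers were measurable in the sorted cells. The summed level of 8 fibroblast markers was 12110 to 85156 in controls and 30965 to 218268 in mutants, with 7 of the 8 positive in log2 fold change, and only Lum, a collagen-binding proteoglycan, passed the test. The 6 smooth muscle markers summed to 96.4 to 888 and to 295 to 2240, and none of them passed. Both sums overlapped between the groups, whereas single markers did not in every case, since Lum, Pdgfrb, Des, Actg2 and Myh11 were above every control in all 5 mutants. At an unadjusted p under 0.05 in limma, 6 of 8 fibroblast and 4 of 6 smooth muscle markers were higher. The 7 leukocyte markers summed to 478 to 586 in controls and to 569.9 to 1187 in mutants, and the 6 endothelial markers to 345 to 1193 and to 293 to 1367. No marker of either list passed, but Cd68 was above every control in all 5 mutants (log2 fold change 0.71, limma adjusted p = 0.110), and Csf1r and Tek had log2 fold changes of 1.41 and 3.55 with overlap (adjusted p = 0.152 and 0.0915). The part of all these cells in the values of Fgfr1, Spry4 and the other members was not tested.

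Of 82 other genes of the pathway in 4 lists, 65 were tested in the sorted cells and 1 passed. This was Egr1, an immediate early transcription factor induced by ERK, at 78.3, 217, 156 and 1023 in controls and at 2342, 910, 4316, 1501 and 2254 in mutants. The groups overlapped through the highest control (log2 fold change 3.12, SE 0.68, limma adjusted p = 0.0417). Among 20 other feedback and target genes 14 were positive, and their median log2 fold change was 0.52. None of 7 ligands, 18 co-receptor and heparan sulfate genes and 20 adaptor and ERK cascade genes passed, with the largest differences at Fgf10 (log2 fold change 1.65, limma adjusted p = 0.117), Gpc3 (1.94, adjusted p = 0.353) and the adaptor Gab1 (-0.37, adjusted p = 0.173).

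The tumors were compared to ask how lesions of active Pparg mice differ from the basal tumors that BBN causes in controls. Genotype and tumor subtype run together here, and in the comparison of luminal domains below, so they cannot be told apart. All 9 members tested had a negative log2 fold change in luminal tumors, and Fgfbp1 fell. It was the only member to pass, 1 of 9, against 2.20% of 15357 genes in either direction and 0.938% lower. For 6 members all luminal tumors lay below all basal tumors, against 11.6% of genes. The median over the 9 members was -2.67, and that over all genes was -0.11, a shift that upper quartile scaling moved to -0.32. Fgfr4 was at 0 in 7 of the 8 libraries of this table and at 3.76 in a basal tumor.

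**Figure D3:**
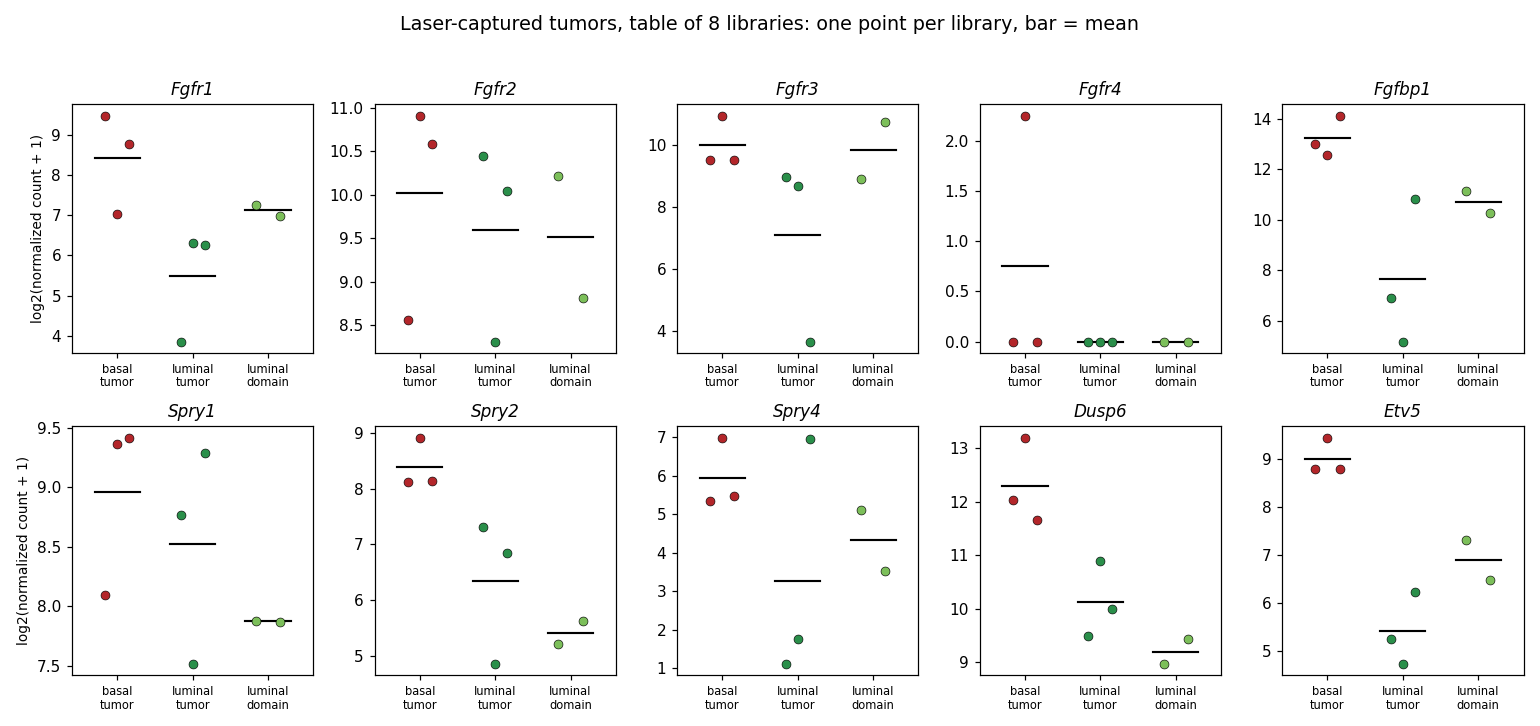
Log2(normalized count + 1) of each member in 3 basal tumors, 3 luminal tumors and the 2 luminal domains of the same table, with 1 point per library and a bar at the group mean. Each panel has its own vertical axis. Fgfbp1, Spry2, Dusp6 and Etv5 are below all basal tumors in each of the 3 luminal tumors and both domains.

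Fgfbp1 was abundant in the basal tumors, at 8168, 6088 and 17984 normalized counts, and was at 120, 35.1 and 1819 in the luminal tumors. The luminal tumors themselves differed widely, yet the highest was well under the lowest basal tumor. The log2 fold change was -5.59 (SE 1.19, limma adjusted p = 0.0472). When the 8 libraries were left out in turn, 7 of the omissions ended the call (adjusted p 0.0795 to 0.149). Without the luminal tumor at 1819 the log2 fold change was -7.19 (adjusted p = 0.00493). Of 10 other settings 5 ended it as well, namely a pseudocount of 0.5, no filter, no trend, the 2 groups alone and tumors with domains together (adjusted p 0.0519 to 0.133).

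The ETS factor Etv5 was at 445, 700 and 442 in basal tumors and at 37.2, 25.5 and 74.0 in luminal tumors. The gap between the groups was wide (log2 fold change -3.61, SE 0.90), and the adjusted p was 0.0766 in limma. It passed without the luminal tumor that was at 74.0 (adjusted p = 0.0428) and with eBayes run without a trend (adjusted p = 0.0381). Dusp6 was at 4198, 9392 and 3225 and at 719, 1911 and 1015 in the same groups (log2 fold change -2.17, SE 0.52, limma adjusted p = 0.0684), and passed in 2 other settings, upper quartile scaling (adjusted p = 0.0490) and luminal tumors fitted together with domains (adjusted p = 0.0237).

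The receptors had a mixed pattern. Fgfr3 was at 726, 1975 and 728 in basal tumors and at 498, 413 and 11.6 in luminal tumors. The groups did not overlap, but a single luminal tumor was far below the others (log2 fold change -2.88, SE 1.32, limma adjusted p = 0.284), and without it the log2 fold change was -1.16. This is the tumor that was at 1819 for Fgfbp1 and at 74.0 for Etv5, where it was the highest of the luminal tumors. Without it 813 genes passed in place of 338. Fgfr2 was at 377, 1922 and 1537 and at 1390, 317 and 1052, with overlap (log2 fold change -0.42, 95% interval -2.21 to 1.37, limma adjusted p = 0.822).

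Fgfr1 was at 711, 130 and 436 in basal tumors and at 13.5, 78.3 and 75.7 in luminal tumors (log2 fold change -2.95, SE 1.10, limma adjusted p = 0.200). Stromal markers had lower sums in the luminal tumors too. The 8 fibroblast markers summed to 46996 to 69505 in basal and to 227 to 17189 in luminal tumors, and 4 of the 8 (Col1a1, Col1a2, Pdgfrb and Thy1) fell. The 6 smooth muscle markers summed to 4746 to 42945 and to 11.6 to 1053, with 2 of them at 0 in all luminal tumors, and Acta2 and Cnn1 fell (log2 fold change -6.55 and -8.76, limma adjusted p = 0.0472 and 0.0428). Leukocyte markers, 7 in number, summed to 3137 to 8258 and to 488 to 1888, and 6 endothelial markers to 1762 to 3722 and to 374 to 1831, with no marker of either list passing. All 6 endothelial markers were negative, and Pecam1, Cdh5, Tek and Vwf were below every basal tumor. Ptprc, a leukocyte marker, was also below every basal tumor (log2 fold change -3.75, limma adjusted p = 0.0915). The part of all these cells in the values of Fgfr1 and the other members was not tested.

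No Sprouty gene passed in the tumors, and for Spry2 alone were the groups separated. Spry2 was at 277, 481 and 280 and at 158, 28.0 and 114 (log2 fold change -2.05, SE 1.01, limma adjusted p = 0.321). Spry1 was at 273, 657 and 683 and at 435, 182 and 624, and Spry4 at 39.5, 126 and 43.3 and at 1.16, 2.35 and 122, both with overlap (limma adjusted p = 0.793 and 0.441). For Spry4 the luminal tumor that was lowest in Fgfr3 was close to the highest basal tumor while the others were near 0, and without it the log2 fold change was -4.51 (adjusted p = 0.108).

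None of the 59 other pathway genes tested passed in the tumors. The ligand Fgf1 was at 0, 191 and 58.7 in basal and at 490, 496 and 802 in luminal tumors, above without overlap (log2 fold change 4.69, SE 1.68, limma adjusted p = 0.185). The Raf kinase Braf was also above without overlap (log2 fold change 1.61, adjusted p = 0.191). Spsb1 was below without overlap (-5.28, adjusted p = 0.126), and Flrt2, a membrane protein that binds FGF receptors, had a log2 fold change of -5.20 (adjusted p = 0.140) with overlap. Among 19 other feedback and target genes 15 were negative, with a median of -1.09.

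The luminal domains of mixed lesions were set against the same 3 basal tumors in a table of their own, so that these values are not independent of the tumor comparison. Fgfbp1 fell, and Spry1, Spry2, Dusp6 and Etv5 were below every basal tumor without passing, while Fgfr2 and Fgfr3 overlapped. Of the 9 members tested 1 passed, against 2.53% of 14921 genes in either direction and 0.824% lower. For 5 members the domains were below the basal tumors without overlap, against 12.8% of genes. The median was -1.26 over the members and 0.0097 over all genes.

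**Figure D4:**
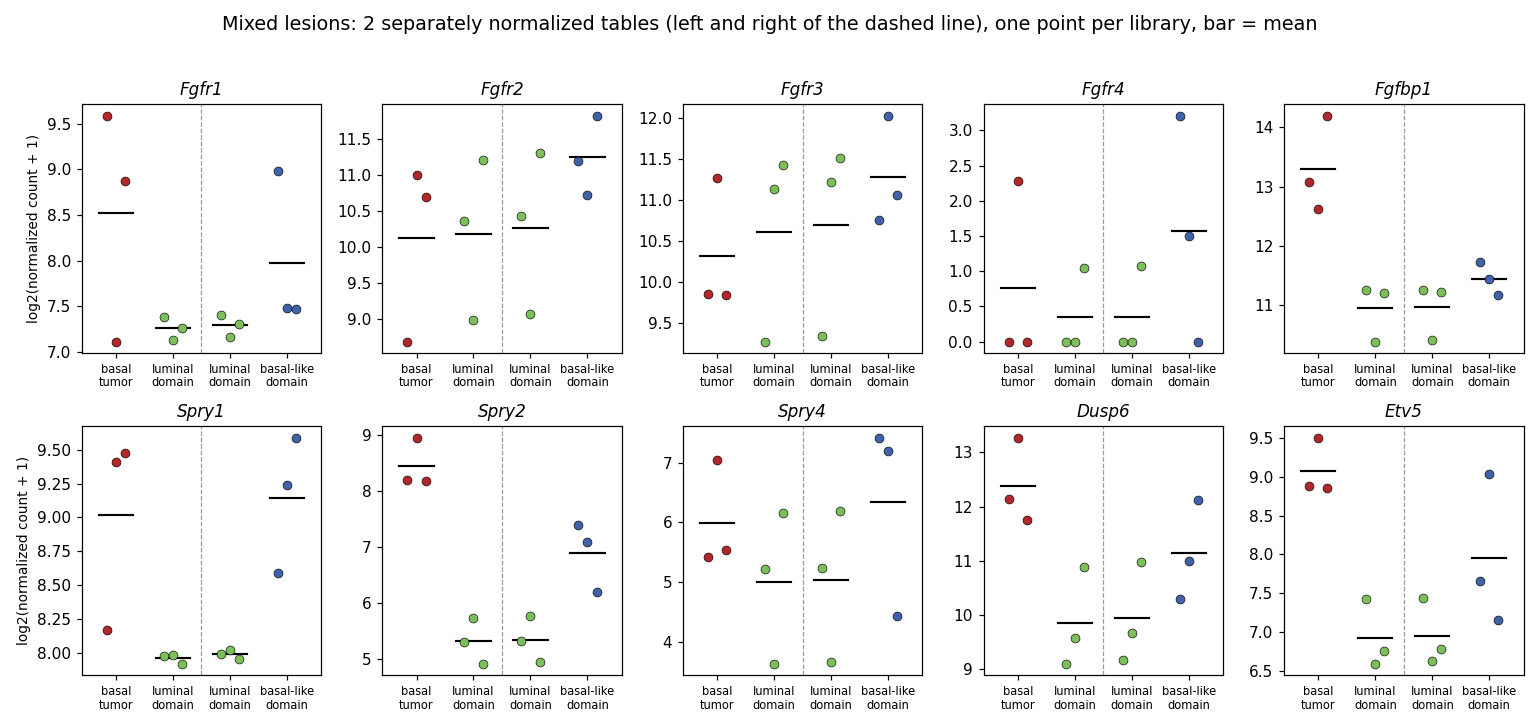
Log2(normalized count + 1) of each member in the 3 basal tumors and 3 luminal domains of one table (left of the dashed line) and in the 3 luminal and 3 basal-like domains of another (right), with 1 point per library and a bar at the group mean. The luminal domains are the same libraries in both tables. Spry1, Spry2, Dusp6, Etv5 and Fgfbp1 are lower in every luminal domain than in every basal tumor.

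Fgfbp1 was at 8632, 6308 and 18793 in basal tumors and at 2436, 1338 and 2364 in luminal domains. The log2 fold change was -2.35 (SE 0.45, limma adjusted p = 0.0439). This call too ended with 5 of 6 omissions of a single library (adjusted p 0.0705 to 0.165) and remained only without the basal tumor at 6308 (adjusted p = 0.0335). In the table of 8 libraries, where 2 of the domains appear, the log2 fold change was -2.53 (adjusted p = 0.426), and the call was also lost without a filter (adjusted p = 0.0697) and without a trend (adjusted p = 0.132).

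Spry2 was at 292, 497 and 291 in basal tumors and at 38.5, 52.2 and 29.0 in luminal domains, a log2 fold change of -3.13 (SE 0.84, limma adjusted p = 0.0962), and it passed with eBayes run without a trend (adjusted p = 0.0490). Dusp6 was at 4516, 9905 and 3430 and at 547, 761 and 1883 (log2 fold change -2.54, SE 0.56, limma adjusted p = 0.0637). Etv5 was at 470, 725 and 462 and at 171, 95.5 and 107 (log2 fold change -2.15, SE 0.67, limma adjusted p = 0.131). All of these were separated between the groups. Spry1 was at 287, 679 and 712 and at 251, 253 and 241, where the domains were nearly equal and the lowest basal tumor was close to them (log2 fold change -1.06, limma adjusted p = 0.382).

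The receptors overlapped in this comparison. Fgfr3 was at 923, 2463 and 915 in basal tumors and at 616, 2245 and 2756 in luminal domains (log2 fold change 0.29, 95% interval -1.23 to 1.81, limma adjusted p = 0.838). Fgfr2 was at 410, 2047 and 1651 and at 1309, 503 and 2361 (log2 fold change 0.06, 95% interval -1.71 to 1.82, limma adjusted p = 0.975), and its sign turned under quantile scaling and under upper quartile scaling, which moved the median of all genes to -0.19. Fgfr1 was at 769, 138 and 466 and at 166, 139 and 153, with the domains within a narrow range just above the lowest basal tumor (log2 fold change -1.26, limma adjusted p = 0.438). Spry4 was at 41.7, 131 and 45.2 and at 36.2, 11.4 and 70.4 (log2 fold change -0.99, limma adjusted p = 0.675), and Fgfr4 did not exceed 3.86 in any library.

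Of the 60 other pathway genes tested, Spsb1 alone passed. It encodes a SOCS box protein, and was at 438, 1638 and 665 in basal tumors and at 15.0, 20.9 and 13.8 in luminal domains (log2 fold change -5.50, SE 0.91, limma adjusted p = 0.0313). Fgf1 again lay above all basal tumors, at 892, 972 and 398 against 0, 223 and 68.9 (log2 fold change 4.81, SE 1.87, limma adjusted p = 0.202). Fibroblast markers summed to 48150 to 72931 in basal tumors and to 5460 to 31848 in luminal domains, and none passed. Smooth muscle markers summed to 4931 to 45208 and to 1032 to 1622, and Acta2 and Cnn1 among them fell. The 7 leukocyte markers summed to 3349 to 8468 and to 2190 to 3743, with none passing. The 6 endothelial markers summed to 1904 to 3857 and to 1884 to 3972, with 4 of the 6 positive and none passing. Emcn among them was above every basal tumor and Vwf below. The part of these cells in the members' values was not tested.

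**Figure D5:**
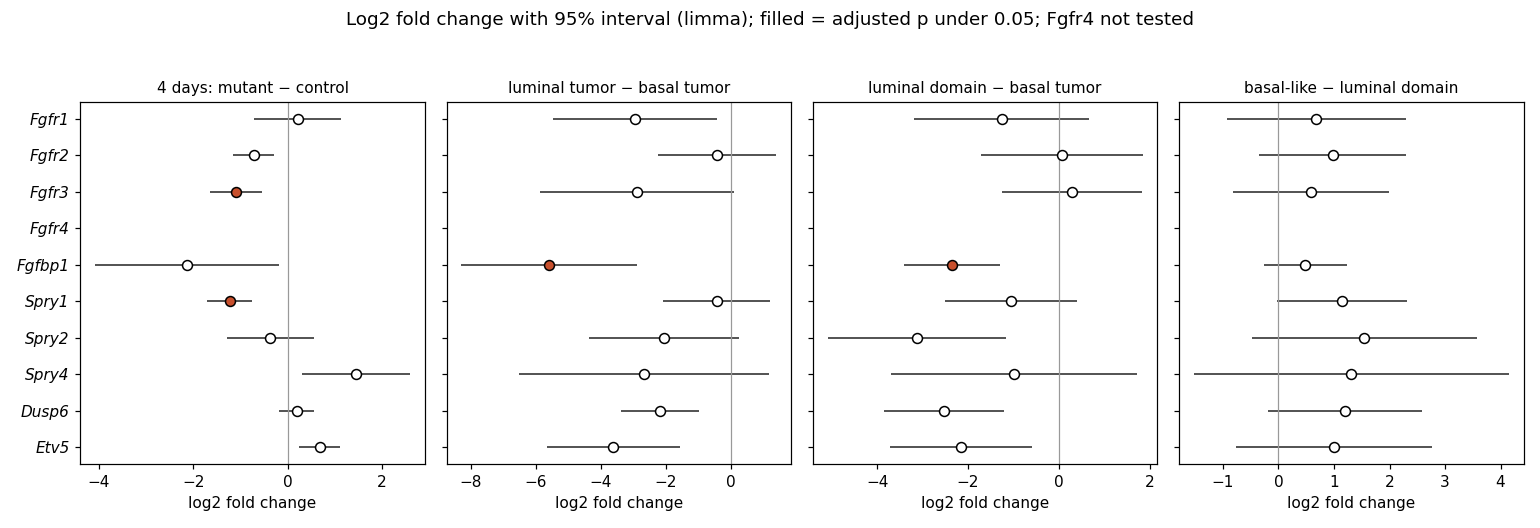
Log2 fold change of each tested member (point) with its 95% interval from limma, unadjusted for the number of genes (line), in the 4 comparisons. Filled points passed at an adjusted p under 0.05: Fgfr3 (-1.10) and Spry1 (-1.22) at 4 days, and Fgfbp1 in luminal tumors (-5.59) and in luminal domains (-2.35) against basal tumors. The comparisons share libraries, so their points are not independent.

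The parts of mixed lesions were compared to ask how the lower, basal-like domain differs from the luminal domain above it. Upper and lower domains may come from the same lesions, which no label used here ties together. Their column numbers are adjacent (CT128 and CT129, CT143 and CT144, CT148 and CT149), and the labels do not say whether this marks shared lesions. The test takes the domains as unpaired, so a change within lesions was not tested, also where groups overlapped. Values of the members below stand in column order, which was not used to pair libraries. No member passed, and no gene of 14874 did, which is 0% in limma with a trend. In the same fit 757 genes (5.09%) had an unadjusted p under 0.05, with no member among them. Without a trend 20 genes and no member passed. All 9 members tested were positive in log2 fold change, with a median of 1.00 against 0.0093 over all genes, and upper quartile scaling moved the latter to 0.11. For 3 of them, Fgfr1, Spry1 and Spry2, every basal-like domain was above every luminal domain, against 5.62% of genes.

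Spry1 was at 254, 259 and 247 in luminal domains and at 385, 603 and 769 in basal-like domains (log2 fold change 1.15, 95% interval -0.0067 to 2.30, limma adjusted p = 0.935). Spry2 was at 38.9, 53.4 and 29.6 and at 167, 136 and 71.7 (log2 fold change 1.55, 95% interval -0.46 to 3.56, limma adjusted p = 0.935). Both sets of basal-like values were separated from the luminal ones. Fgfr1 was at 169, 143 and 157 and at 504, 178 and 176 (log2 fold change 0.69, limma adjusted p = 0.961), so that 1 basal-like domain stood out and the others lay just above the luminal domains.

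No cell type marker passed between the domains in limma. All 10 luminal markers were negative in log2 fold change and all 7 basal markers positive, with 4 of the former (Upk1b, Upk3b, Gata3 and Pparg) below and Cd44 of the latter above every luminal domain. The 8 fibroblast markers summed to 5694 to 32889 in luminal and to 14517 to 105732 in basal-like domains, and 7 of them were positive. Their median log2 fold change was 1.67, and Lum and Thy1 were above every luminal domain (4.86 and 1.77, limma adjusted p = 0.831 and 0.935). The 6 smooth muscle markers summed to 1054 to 1645 and to 1409 to 4739, with all 3 tested positive. The leukocyte markers summed to 2297 to 3937 and to 2044 to 4986, with 4 of 6 tested positive, a median log2 fold change of 1.16 and Cd3e above every luminal domain. The endothelial markers were positive for 3 of 6. The part of these differences in the members' values was not tested.

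Dusp6 was at 576, 811 and 2005 in luminal domains and at 1249, 2040 and 4470 in basal-like domains (log2 fold change 1.20, 95% interval -0.17 to 2.57, limma adjusted p = 0.935). Etv5 was at 172, 97.5 and 109 and at 201, 523 and 141 (log2 fold change 1.00, limma adjusted p = 0.947). In each case the groups overlapped. Fgfr2 was at 1375, 535 and 2510 and at 2336, 1677 and 3614, and Fgfr3 at 646, 2383 and 2924 and at 1734, 4188 and 2132, both with overlap (log2 fold change 0.98 and 0.59, limma adjusted p = 0.935 and 0.961).

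Fgfbp1 was at 2440, 1357 and 2396 in luminal domains and at 3380, 2769 and 2301 in basal-like domains (log2 fold change 0.48, 95% interval -0.25 to 1.21). Spry4 was at 36.7, 11.8 and 72.3 and at 170, 145 and 20.7 (log2 fold change 1.31), and Fgfr4 reached 8.27 in a basal-like domain. Summed per kb, the receptors stood at 558 to 1406 in luminal domains and at 1154 to 1512 in basal-like domains, with overlap. None of 60 other pathway genes tested passed, and Spsb1, at 15.4, 21.6 and 14.3 in luminal and at 421, 211 and 33.9 in basal-like domains, had the largest log2 fold change of its list (3.04, SE 1.16, limma adjusted p = 0.935). The largest in the other lists were Fgf1 (-0.55), Flrt1 (-2.26) and the phospholipase Plcg1 (-1.01), each with overlap.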

How the data were processed

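RNA-seq libraries were made by the authors with SMART-Seq v4 and Nextera XT, a kit that does not mark strand, so antisense reads cannot be told apart. Per the labels, the submitters' processing notes name bcl2fastq 2.20, kallisto 0.44.0, sleuth, DESeq2 1.18 and the builds GRCm38 and GRCh38. The deposited signal values are normalized counts per gene symbol, which the authors made with kallisto, tximport and DESeq2, separately for each table. Whole reads could not be recovered, so read depth is unknown and no counting interval is given. The tables also hold the authors' own fold changes (log2) and deposited p-values, which were not used. A table of 1 month of BBN against untreated wild type, with 8 columns, was not used because no label or header used here ties its columns to a group.

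Libraries were grouped by their labels. Genes that reached 10 normalized counts in enough libraries to fill the smaller group were tested on log2(normalized count + 1) with limma 3.58.1 in R 4.3.3 (lmFit, eBayes with a trend), with Benjamini-Hochberg adjustment over all genes tested at 0.05. This scale understates the change of low genes. Luminal and basal tumors were fitted with 2 luminal domains as a separate group. The fits were tested on simulated data. Nothing in the labels ties libraries to separate animals, so p-values measure the spread between these samples. The values per kb use the median length of the coding transcripts in the GENCODE basic annotation of GRCm38. Figures were drawn with matplotlib.

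The members, the 4 lists of 82 pathway genes and the marker lists were chosen with earlier results of these data known. All 10 members are named, and of each pathway list up to 5 called genes with the largest change, or the tested gene with the largest change where none was called. Pparg, Krt5 and single stromal markers are named as checks. Alternatives were other pseudocounts (0.5 and 5), no filter or a filter at 50, eBayes without a trend, array weights, quantile and upper quartile scaling, other tables or groups in the fit, a term for Y-linked expression, and leaving out each library.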

Additional observations from a re-analysis of the deposited data

Results flagged for a closer look

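In the 5 mutant libraries of sorted cells, Fgfbp1 was at 69.6 normalized counts in a single library and between 2.90 and 15.1 in the others. The gap to the next library was 0.817 of the whole range, above Dixon's 95% critical value of 0.710 for 5 samples. Of 20 groups of values checked (10 members in controls and mutants), 1 was marked in this way, and chance marks about 5% of groups.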

How the results depend on the processing

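No paired analysis was possible because the columns of the tables carry no replicate numbers. Pairing the domains by their adjacent column numbers was not tried, since no label says that these mark shared lesions. A change within lesions therefore remains untested for every member. In the sorted cells 467 genes and 2 members passed. The counts were 269 and 1 with eBayes without a trend, 1054 genes with array weights, 147 and 0 in the table of 3 against 3 libraries, and 26 and 0 with a term for Y-linked expression. Leaving out each library gave 129 to 596 genes and 0 to 2 members. In the tumors, where 338 genes and 1 member passed, 0 members passed at a pseudocount of 0.5. Without a filter 52 genes and 0 members passed, without a trend 142 genes, in the fit of the 2 groups alone 142 genes and 0 members, with tumors and domains together 513 genes, and under upper quartile scaling 2 members. Leaving out each library gave 3 to 813 genes and 0 to 2 members. For luminal domains against basal tumors, with 377 genes and 1 member, the counts were 144 and 0 without a filter, 107 genes without a trend, and 53 and 0 in the table of 8 libraries. Leaving out each library gave 0 to 467 genes and 0 to 1 members. Between domains, 20 genes passed without a trend. Quantile normalization moved the sorted cells from 290 higher and 177 lower to 270 and 287. Upper quartile scaling moved the tumors from 194 higher and 144 lower to 147 and 167, and luminal domains against basal tumors from 254 and 123 to 164 and 131.

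Signs turned only for members that passed in no setting of the comparison concerned. At 4 days Fgfr1 was at -0.17 in the table of 3 against 3 and between -0.036 and 0.52 with a library left out, and Spry2 was at 0.17 with the Y-linked term. In tumors, leaving out a library gave Fgfr2 between -1.15 and 0.22 and Spry1 between -0.87 and 0.070. In luminal domains against basal tumors Fgfr2 was at -0.038 under quantile and -0.15 under upper quartile scaling and at -0.50 in the table of 8 libraries, and between -0.67 and 0.66 with a library left out. Fgfr3 was at -0.16 in the table of 8 libraries and between -0.12 and 0.96. Between domains Fgfr3 lay between -0.083 and 1.01. The cause of these shifts was not tested. With 3 libraries a group, differences smaller than the intervals given for each gene could not be detected.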
